A study of Drosophila melanogaster with 19 samples.

Results

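The homeotic (Hox) genes of *Drosophila melanogaster* were examined in RNA-seq libraries of embryos at stage 12 to 14. The 8 genes were taken by symbol: *lab*, *pb*, *Dfd*, *Scr* and *Antp* of the Antennapedia complex, and *Ubx*, *abd-A* and *Abd-B* of the Bithorax complex. All 8 were found among the 17807 genes of the count table, and all 8 passed the filter on low counts that left 11978 genes for testing. There were 19 libraries of 5 genotypes, each library made from several pooled embryos that had been picked by hand as GFP-positive. The null embryos (n = 4) carried the *chiffon* null alleles ETBE3 and DsRed in trans, with Actin-Gal4 and UAS-10XGFP. Embryos of the FL genotype (n = 3), of FLWF24 (n = 4) and of ΔN (n = 4) carried a single *chiffon* transgene in that same mutant background, under the regulatory regions of *chiffon* itself. The FL transgene holds the whole coding sequence, the FLWF24 reading frame is cut short by a stop codon, and the N-terminal part is missing from ΔN. The WT embryos (n = 4) were the parental Actin-Gal4 and GFP control with no *chiffon* mutation.

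Hox proteins are homeodomain transcription factors that give segments their identity along the head-to-tail axis. Their order on the chromosome follows the order of the body regions they specify. Gap and pair-rule proteins set the first Hox patterns, and the Polycomb and Trithorax groups then maintain the repressed and the active states. *chiffon* encodes Chiffon-A, which activates the DDK kinase, and Chiffon-B, around which the histone acetyltransferase complex CHAT forms. The FLWF24 and ΔN transgenes make Chiffon-B and no Chiffon-A. The comparisons asked whether loss of *chiffon* altered the level of Hox transcripts, and whether the transgenes differed from each other and from WT.

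Library depth ran from 5495395 gene counts in ΔN replicate 4 to 21791117 in null replicate 3. The *chiffon* transcript itself was at 29.1 ± 6.90 CPM in null (SD, n = 4; CPM are counts relative to the scaled depth of the library) and at 238 to 445 CPM on average in the other genotypes. Summed markers of other cell types had shifted ranges in null, overlapping those of WT for all but the neuronal and germ cell lists. The summed level of 4 muscle markers was 3957 to 16455 CPM in null and 1893 to 5477 CPM in WT, and that of 5 neuronal markers was 1247 to 1756 CPM in null and 801 to 1037 CPM in WT. The 4 hemocyte markers summed to 1983 to 6633 CPM in null and 820 to 2805 CPM in WT, whereas the 4 glial markers were at 250.5 to 379 CPM in null and 351 to 437 CPM in WT. The 5 markers of maternal follicle cells and yolk never exceeded 15.9 CPM in sum. A stage score was computed as the mean log2(CPM + 1) of late muscle and cuticle genes minus that of early patterning genes, with no Hox gene in it. It averaged 5.19 ± 1.29 in null, 3.17 ± 0.607 in WT (n = 4 each) and 0.756 ± 0.919 in FL (n = 3) and was highest in null. In these bulk libraries, fewer cells of a type and less RNA per cell cannot be told apart.

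All 8 Hox genes lie on chromosome arm 3R (BDGP6). The Antennapedia complex genes span 6661427 to 6678590 (*lab*), 6707800 to 6742063 (*pb*), 6791836 to 6802428 (*Dfd*), 6823120 to 6849981 (*Scr*) and 6896253 to 6999228 (*Antp*). The Bithorax complex genes span 16656623 to 16734426 (*Ubx*), 16807214 to 16830049 (*abd-A*) and 16927212 to 16972236 (*Abd-B*). All but *Dfd* are on the minus strand. Most of each gene is intron, and exons cover 5.5% of *Ubx* to 26.2% of *Abd-B*. *Antp* shares 3978 exon bases, 50.1% of its exon length, with the gene CG46458 on the same strand, which was not among the counted genes.

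Levels per kb of exon placed *abd-A* and *Ubx* first. Averaged over the genotypes, *abd-A* was at 47.4 CPM per kb, *Ubx* at 37.9, *Antp* at 21.1, *Scr* at 20.4, *Dfd* at 12.1, *Abd-B* at 11.4, *lab* at 6.80 and *pb* at 5.60 CPM per kb. The median tested gene was at 10.5 CPM per kb, and *abd-A* exceeded 86.3% of the tested genes. *abd-A* was above *Ubx* in 16 of 19 libraries, *Ubx* above *Antp* in 18, *Scr* above *Dfd* in 19, and *Abd-B* above *lab* in 17. Neighbours whose order was not settled were *Antp* and *Scr* (*Antp* higher in 12 of 19 libraries), *Dfd* and *Abd-B* (*Dfd* higher in 9) and *lab* and *pb* (*lab* higher in 13). The 3 Bithorax genes made up 58.7% ± 6.21 of the summed Hox level per kb over all 19 libraries (SD), from 40.4% in ΔN replicate 4 to 66.5%.

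**Figure D1:**
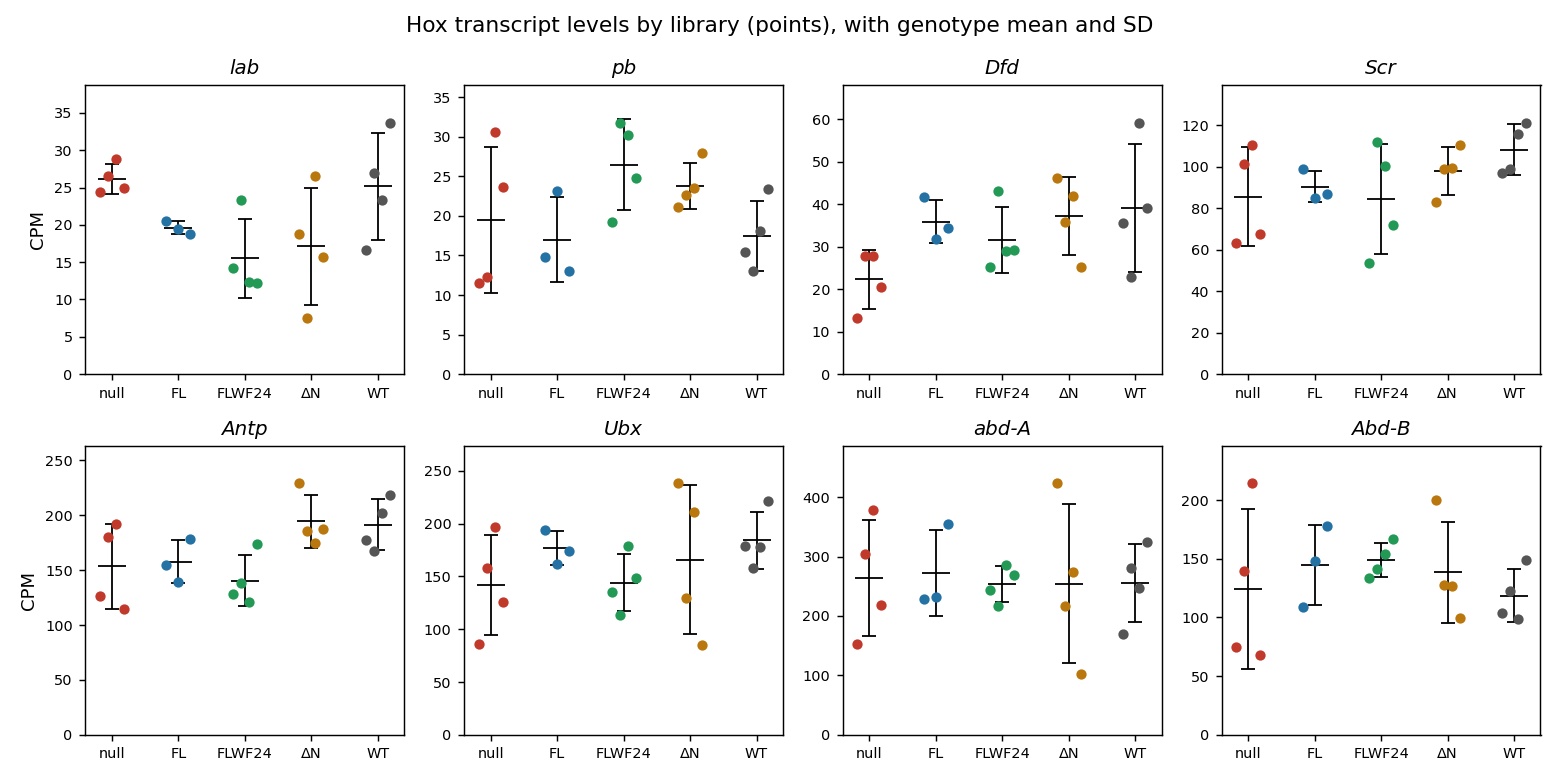
CPM of the 8 Hox genes (vertical axes, linear and starting at 0) in each of the 19 libraries, by genotype. Points are libraries, and the horizontal mark with its bar is the genotype mean with 1 SD. Genotypes overlap except for *lab* in null (24.4 to 28.8 CPM) against FL (18.8 to 20.5 CPM) and FLWF24 (12.2 to 23.3 CPM), *Dfd* in null (13.2 to 27.7 CPM) against FL (31.7 to 41.6 CPM), and *Antp* in ΔN (174.9 to 229.1 CPM) against FLWF24 (121.3 to 174.1 CPM). None of these differences was called by edgeR, and the share of all tested genes without overlap is not given here.

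No Hox gene was called different between any genotypes. A call by the quasi-likelihood test of edgeR required a log2 fold change of at least 0.5 in size and an adjusted p, taken over all tested genes, under 0.05. In null against FL, 0 of 8 Hox genes were called, against 0.501% of all tested genes. The corresponding background shares were 0.634% for null against WT, 1.0% for null against FLWF24 and 1.14% for null against ΔN, again with 0 of 8 called. Among the rescued and WT genotypes the shares were 0.0918% for FL against WT, 0.0250% for FLWF24 against FL, 0.184% for FLWF24 against WT, 0.0167% for ΔN against FL, 0.0751% for ΔN against WT and 0.342% for ΔN against FLWF24. With backgrounds this low, 0 called of 8 genes is not a result about Hox genes in particular. At an unadjusted p under 0.05 the edgeR test gave 2 of 80 fold changes, both of *Antp*, against 6.35% to 16.3% of all tested genes in a comparison. DESeq2 also called 0 of 8 Hox genes in each comparison, where it called 211 to 710 of all tested genes.

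The intervals of the fold changes set what the data could show. Of the 80 fold changes of Hox genes, 56 had a 95% interval that lay wholly within a log2 change of 1 in either direction. The other 24 intervals reached beyond that, and belonged to *pb* (10), *lab* (8), *Dfd* (4) and *abd-A* (2). The counts per library were 75 to 581 for *lab*, 61 to 618 for *pb* and 70 to 735 for *Dfd*, compared with 545 to 7619 for *abd-A*. In null against FL the 8 fold changes had a median of 0.05 on the log2 scale, equal to the 0.05 of all tested genes to that precision, and in null against WT they had a median of -0.08 against 0.03. A changed level of moderate size was therefore not excluded at this depth and spread, in the anterior genes or in the Bithorax genes. In null against FL the intervals ran from -0.84 to 0.61 for *Ubx*, -0.89 to 1.03 for *abd-A* and -0.75 to 0.79 for *Abd-B*.

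**Figure D2:**
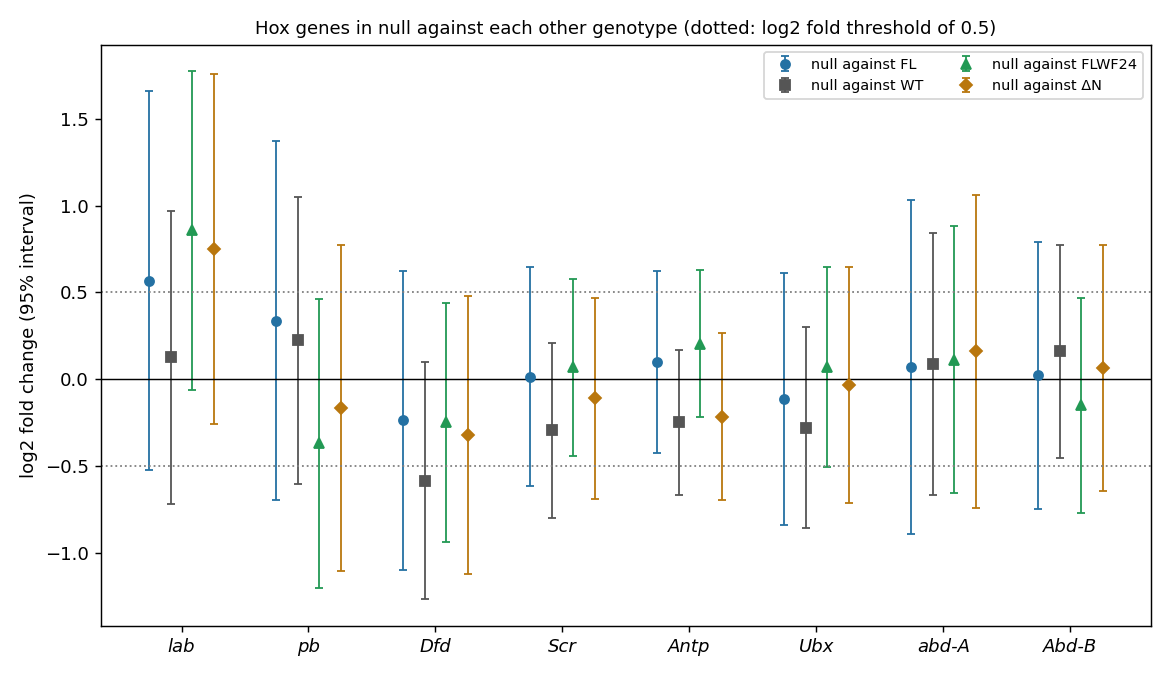
Log2 fold changes of the 8 Hox genes in null against FL, WT, FLWF24 and ΔN (vertical axis) with 95% intervals from the edgeR fit. Every interval crosses 0, and the dotted lines mark the log2 fold threshold of 0.5.

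*lab*, which acts in the intercalary segment of the head and in the midgut, had the highest fold change of the Hox genes in null against FL, FLWF24 and ΔN, but not against WT. The 4 null libraries were at 24.4, 26.6, 28.8 and 24.9 CPM, and the 3 FL libraries at 20.5, 19.5 and 18.8 CPM. Those groups did not overlap, and neither did null and FLWF24. The share of all tested genes without overlap is not given here, nor for *Dfd* and *Antp* below. FLWF24 was at 14.2, 23.3, 12.4 and 12.2 CPM, and WT at 16.6, 26.9, 23.4 and 33.7 CPM, so the null range lay inside that of WT. The log2 fold change of *lab* was 0.57 (SE 0.528, adjusted p = 0.771, edgeR) in null against FL, 0.13 (SE 0.408, adjusted p = 0.964) against WT and 0.86 (SE 0.444, adjusted p = 0.350) against FLWF24. None passed the test, and the last had an interval from -0.06 to 1.78. *pb*, needed for the adult mouthparts, was at 11.5 to 30.6 CPM in null and 13.1 to 31.8 CPM in the other 15 libraries. Its fold changes in null ran from -0.37 against FLWF24 to 0.34 against FL, with no call.

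*Dfd*, which specifies the mandibular and maxillary segments, had the lowest fold change of the Hox genes in null against FL, WT and ΔN, but not against FLWF24. It was at 13.2, 27.7, 27.7 and 20.5 CPM in null, against 41.6, 31.7 and 34.4 CPM in FL. WT had 35.5, 22.9, 59.2 and 39.1 CPM, and 1 WT library lay within the null range. The ΔN libraries were at 46.2, 35.7, 42.0 and 25.1 CPM, and FLWF24 at 25.2, 43.0, 28.9 and 29.3 CPM. *Dfd* was thus below every FL library in all 4 null libraries. In the edgeR fit the log2 fold change was -0.24 (SE 0.417, adjusted p = 0.909) against FL and -0.59 (SE 0.330, adjusted p = 0.524) against WT. The value depended on the factor of unwanted variation in the fit. Without that factor it was -0.69 against FL (adjusted p = 0.178) and -0.74 against ΔN (adjusted p = 0.12), which was the lowest adjusted p of any Hox gene in any setting. With the stage score in place of the factor it was 0.01 against FL (adjusted p = 1). The factor was itself higher in null replicates 1 and 4 than in any other library, and its part and that of the stage score in the level of *Dfd* were not tested.

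*Scr*, which acts in the labial and the first thoracic segments and starts salivary gland formation, was at 63.3 to 110.7 CPM in null and 53.8 to 121.3 CPM in the other libraries. *Antp*, which specifies thoracic identity, had the smallest spread between replicates of any Hox gene. Its SD within a genotype was 0.238 on the log2 scale, smaller than that of all but 4.83% of tested genes. FLWF24 was at 128.3, 138.6, 121.3 and 174.1 CPM, ΔN at 229.1, 186.1, 174.9 and 187.7 CPM, and WT at 177.8, 167.2, 201.8 and 218.6 CPM. All 4 ΔN libraries were above all 4 FLWF24 libraries, and 1 FLWF24 library overlapped WT. The log2 fold change was -0.46 (SE 0.187, unadjusted p = 0.0233, adjusted p = 0.444) in FLWF24 against WT and 0.42 (SE 0.194, unadjusted p = 0.0408, adjusted p = 0.402) in ΔN against FLWF24 by edgeR. Neither passed after adjustment. In null, *Antp* was at 126.4, 180.5, 192.1 and 115.0 CPM, and its fold changes against the 4 other genotypes lay between -0.25 and 0.21.

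The Bithorax genes specify the posterior thorax and the abdomen. *Ubx*, which acts in the third thoracic and the first abdominal segments, was at 86.2, 157.9, 197.1 and 125.4 CPM in null and at 193.8, 162.1 and 174.2 CPM in FL. *abd-A*, which specifies the middle abdomen, was at 153.4, 304.5, 377.5 and 219.0 CPM in null and at 228.2, 232.4 and 354.9 CPM in FL. Both genes overlapped widely between these genotypes. *Abd-B*, which specifies the posterior abdomen, was at 74.6, 139.2, 214.2 and 67.9 CPM in null and at 108.8, 147.7 and 177.5 CPM in FL. The null libraries spanned the FL libraries on both sides for *abd-A* and *Abd-B*. The fold changes of null against FL were -0.11 (SE 0.352) for *Ubx*, 0.07 (SE 0.456) for *abd-A* and 0.02 (SE 0.371) for *Abd-B*, with adjusted p-values from 0.959 to 0.998 (edgeR).

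A single deep library had the highest, or joint highest, level of each Hox gene in null. Null replicate 3, with 21791117 gene counts, had the highest *Ubx*, *abd-A* and *Abd-B* of the 4 null libraries. The same held for *lab*, *pb*, *Scr* and *Antp*, and for *Dfd* it was level with null replicate 2. Null replicate 3 also had the lowest stage score in null (3.35) and the lowest share of reads aligned to more than 1 place (45%). Without it, the log2 fold change of *Abd-B* in null against FL was -0.61 in place of 0.02, that of *abd-A* was -0.31 in place of 0.07, and that of *Ubx* was -0.43 in place of -0.11, all without a call. The shallowest libraries were at the other end. ΔN replicate 4 (5495395 counts, 85.3% of its reads aligned to more than 1 place) was at 85.5 CPM for *Ubx* and 102.9 CPM for *abd-A*, the lowest of all 19 libraries for both. Null replicate 1 (6738715 counts, 79.9%) was at 86.2 and 153.4 CPM for these genes, the next lowest for both. The part of depth, of stage and of reads aligned to more than 1 place in these levels was not tested.

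The genotype means of *abd-A* lay close together. The 5 means ran from 253.6 CPM in FLWF24 to 271.8 CPM in FL. For genotype means taken on log2(CPM + 1), the SD was 0.085, smaller than that of all but 1.17% of tested genes (the median gene had 0.413). The spread between replicates of *abd-A* was nonetheless the widest of the Hox genes, at 0.531. With 3 or 4 libraries per genotype, that spread leaves the closeness of the means uncertain. Ranges of the 15 libraries outside null were 102.9 to 423.0 CPM for *abd-A*, 85.5 to 238.0 CPM for *Ubx* and 98.5 to 200.1 CPM for *Abd-B*.

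The make-up of the Hox transcripts within a library does not depend on how libraries are scaled. In null, *Dfd* took 5.37% ± 0.631 of the summed Hox level per kb (n = 4), against 8.06% ± 2.22 in the 7 control libraries of FL and WT. *Ubx* took 21.7% ± 1.28 against 24.8% ± 2.43, and *lab* took 6.03% ± 1.55 against 4.33% ± 0.776. Two-sided exact permutation tests over the libraries gave p = 0.0182 for *Dfd*, p = 0.0364 for *Ubx* and p = 0.0485 for *lab*. With 330 splits, a two-sided p stays above 0.00303. After adjustment over the 8 genes all 3 were at 0.129, and none passed. *Antp* took 13% in both groups, *Scr* 12.5% against 12.9%, and *Abd-B* 6.61% against 6.44%. *abd-A* was at 31.3% ± 2.25 against 27.8% ± 4.61 (exact p = 0.188).

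**Figure D3:**
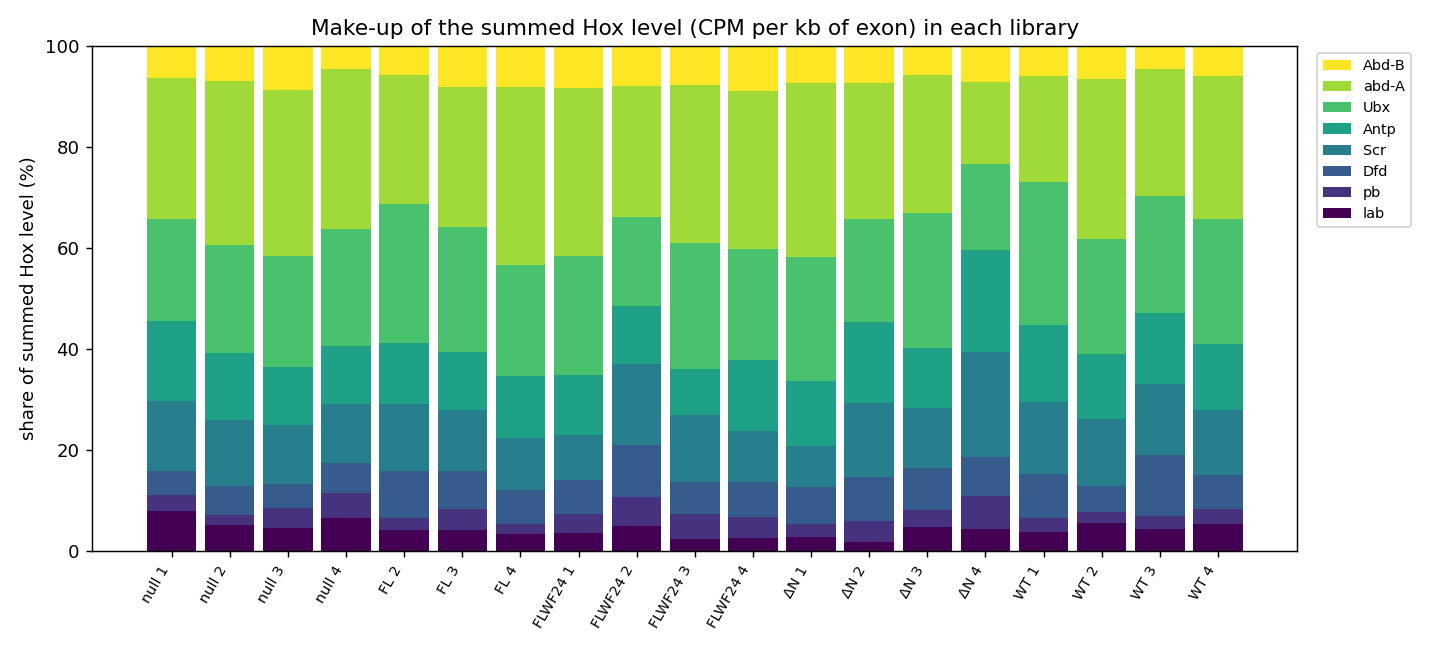
Share of each Hox gene in the summed Hox level (CPM per kb of exon, vertical axis in percent) in each of the 19 libraries, stacked from *lab* at the bottom to *Abd-B* at the top. The 3 Bithorax genes at the top fill 40.4% of the bar in ΔN replicate 4 and up to 66.5% elsewhere.

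Some Hox genes varied together across libraries, among them neighbours in the Bithorax complex. Other genes were more alike to each over the same libraries, up to r = 0.856 for *Ubx*, 0.875 for *abd-A* and 0.863 for *Abd-B*. The part of position on the chromosome was not tested. Of 28 pairs, 3 had an adjusted p under 0.05 over the 19 libraries. *Ubx* and *abd-A* had Pearson's r = 0.788 (permutation p = 6e-05, adjusted p = 0.00168) and Spearman's rho = 0.689 (adjusted p = 0.0202), with r = 0.574 once the 2 libraries farthest from the median *Ubx* level were left out. *abd-A* and *Abd-B* had r = 0.727 (permutation p = 0.00043, adjusted p = 0.00602) and rho = 0.742 (adjusted p = 0.0132), with r = 0.756 without the 2 farthest libraries. *Dfd* and *Ubx*, of different complexes, had r = 0.629 (permutation adjusted p = 0.036) and rho = 0.558 (adjusted p = 0.134), with r = 0.5 without the 2 farthest. Without the 2 shallowest libraries, a set chosen after seeing the data, *Ubx* and *abd-A* were at r = 0.574 (permutation adjusted p = 0.15) and *Dfd* and *Ubx* at r = 0.418 (adjusted p = 0.295). *abd-A* and *Abd-B* were then at 0.727 (adjusted p = 0.0325). Without the null libraries the *abd-A* pairs were at 0.761 and 0.750 (permutation adjusted p = 0.0193 and 0.0174).

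No relation of a Hox gene to the stage score passed adjustment over the 16 taken as the family (8 genes in all 19 libraries and in the 15 outside null). The nearest was *Dfd*, with r = -0.602 (permutation p = 0.00603, adjusted p = 0.0965) and rho = -0.586 (adjusted p = 0.152) over 19 libraries. Adjusted over the 8 relations of the 19 libraries alone its p was 0.0482. It rested on the libraries at the ends, with r = -0.300 without the 2 farthest and r = -0.192 (permutation p = 0.494) without null. The other Hox genes had r from -0.432 (*Abd-B*) to 0.425 (*lab*) over 19 libraries.

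The genes most alike to each Hox gene in log2(CPM + 1) over the 19 libraries were looked up as a description, over 11970 other genes that share the same libraries and depths. *Antp* was most like *Sema1a*, a guidance protein of motor axons (r = 0.889), and *slim* (r = 0.876). *abd-A* was most like *RhoGAP19D* (r = 0.875) and *Zmynd8* (r = 0.872), and *Abd-B* most like *Nup153*, a nuclear pore protein (r = 0.863), and *crol* (r = 0.862). *Ubx* was most like CG14478 (r = 0.856) and CG42342 (r = 0.851). *Dfd* was most like *caup*, a homeobox gene of the Iroquois complex (r = 0.852), and a gene with no symbol in the annotation (r = 0.811). *lab* was most like *kibra*, a regulator of the Hippo pathway (r = 0.841), and *bru2* (r = 0.806). *Scr* was most like *ss*, a transcription factor of distal appendages (r = 0.806), and CG18731 (r = 0.761). *pb* had the lowest likeness, with *insc*, which orients divisions of neuroblasts (r = 0.770), and the translation factor *eIF3b* (r = 0.716).

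The genes that maintain and read out Hox patterns were measured as lists. All 20 Polycomb group genes, 19 Trithorax group genes, 6 cofactors and 8 segmentation regulators were tested, along with 19 of 20 known Hox targets, and edgeR called 0 of them in any of the 10 comparisons. DESeq2 called *Utx* in null against WT and *Snr1* in null against FLWF24, where it called 343 and 710 genes in all. In null against WT, the edgeR test gave an unadjusted p under 0.05 for 2 Polycomb, 4 Trithorax, 0 cofactor, 1 segmentation and 1 target gene, against 11.5% of all tested genes. The medians of the log2 fold changes in that comparison were -0.06, -0.14, -0.14, -0.39 and -0.10, against 0.03 for all tested genes. *Utx*, the H3K27 demethylase of the Trithorax list, came closest. It was at 76.7, 94.9, 162.0 and 60.3 CPM in null and at 181.3, 203.6, 218.3 and 237.5 CPM in WT, with no overlap. The share of all tested genes without overlap is not given here. The log2 fold change of *Utx* was -1.07 (SE 0.254, adjusted p = 0.0502, edgeR). Of 30 alternative settings, 15 called it, with adjusted p from 0.000531 to 0.277. The count of this list moved with null replicate 3. Without it, 4 Trithorax genes were called in null against FL (*brm*, *mor*, *Snr1* and *Utx*), 2 against WT, 6 against FLWF24 and 4 against ΔN. Over all genes the calls were then 311, 277, 491 and 440 in place of 60, 76, 120 and 136. The same omission called the segmentation regulators *hb* and *kni* against FL, and no Hox gene. Without the factor of unwanted variation, 3 Trithorax and 2 Polycomb genes were called against FL, 2 and 1 against FLWF24, and 5 and 3 against ΔN, where the calls over all genes were 1308, 815 and 1512. *Pc*, the chromodomain protein of Polycomb complexes, was at 45.5 ± 24.6 CPM in null and 50.1 ± 10.5 CPM in WT (n = 4 each). *trx*, a histone methyltransferase, was at 436.6 ± 68.1 CPM against 368.6 ± 62.1 CPM. The cofactors that bind DNA with Hox proteins were at 871.9 ± 172.7 CPM in null and 1084 ± 180.7 CPM in WT for *hth*, and at 224.1 ± 22.6 CPM and 231.2 ± 22.7 CPM for *exd*. Of the targets, *Dll*, a limb gene repressed by Bithorax proteins, was at 42.2 ± 10.9 CPM and 46.6 ± 16 CPM. *dpp*, a BMP ligand activated by Ubx in the midgut, was at 50.6 ± 3.83 CPM and 59.7 ± 16.6 CPM. The null libraries were at 47.0 to 55.2 CPM and did not overlap FL, at 72.3 to 90.1 CPM. Here too the share of all tested genes without overlap is not given. The log2 fold change of *dpp* in null against FL was -0.65 (adjusted p = 0.492, edgeR), and in those groups alone -0.75 (adjusted p = 0.0464). Only that 1 of 30 alternative settings called *dpp* against FL, and it called 1431 genes in all in place of 60.

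*Ama*, a secreted immunoglobulin-domain protein encoded between *pb* and *Dfd*, was lower in null. It lies at 3R, 6762593 to 6765261, on the plus strand, and was the only gene that edgeR called among the 6 tested of 13 listed neighbours of the Hox genes. DESeq2 also called *lncRNA:iab4*, in ΔN against FL, where it called 366 genes in all. *Ama* was at 62.7, 150.1, 287.2 and 143.9 CPM in null, and at 869.4, 761.9 and 576.1 CPM in FL. FLWF24 was at 488.0, 554.2, 417.3 and 597.9 CPM, ΔN at 435.8, 647.9, 596.8 and 646.6 CPM, and WT at 639.7, 338.4, 456.6 and 436.4 CPM. No null library reached the lowest of the 15 others, and the share of all tested genes with that pattern is not given here. The log2 fold change was -1.60 (SE 0.320, adjusted p = 0.0188, edgeR) against FL, -1.24 (SE 0.258, adjusted p = 0.0194) against WT, -1.38 (SE 0.256, adjusted p = 0.0108) against FLWF24 and -1.33 (SE 0.289, adjusted p = 0.0237) against ΔN. *Ama* was not called among the 4 other genotypes.

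The level of *Ama* moved with the stage score. Over 19 libraries r was -0.863 (permutation p = 1e-05, the smallest the resamples give) and rho was -0.809 (permutation p = 5e-05), with r = -0.781 without the 2 farthest libraries. Over the 15 libraries outside null r was -0.702 (permutation p = 0.00331) and rho was -0.668 (permutation p = 0.00742), with r = -0.477 without the 2 farthest. The relation of *Ama* was added after its values were seen. With the stage score as a covariate in place of the factor, the calls were lost, with log2 fold changes of -1.12 against FL (adjusted p = 1), -1.10 against WT (adjusted p = 0.184), -1.06 against FLWF24 (adjusted p = 0.544) and -1.24 against ΔN (adjusted p = 0.123). In that setting most calls over all genes were lost too, with 3, 31, 2 and 34 in place of 60, 76, 120 and 136. The mean score was highest in null (5.19, with 3.17 in WT and 0.756 in FL), so score and genotype cannot be told apart. The part of stage in the level of *Ama* was not tested. Without null replicate 2 the adjusted p was 0.0695, 0.0737, 0.064 and 0.0743 in the same order, where the calls over all genes were 29, 42, 13 and 63. Leaving out FL replicate 2 or 3 gave 0.0856 and 0.0665 against FL, WT replicate 3 gave 0.0633 against WT, FLWF24 replicate 3 gave 0.0963 against FLWF24, and FLWF24 replicate 2 or ΔN replicate 4 gave 0.0554 and 0.0532 against ΔN. In null and the compared group alone, the adjusted p against WT was 0.105.

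**Figure D4:**
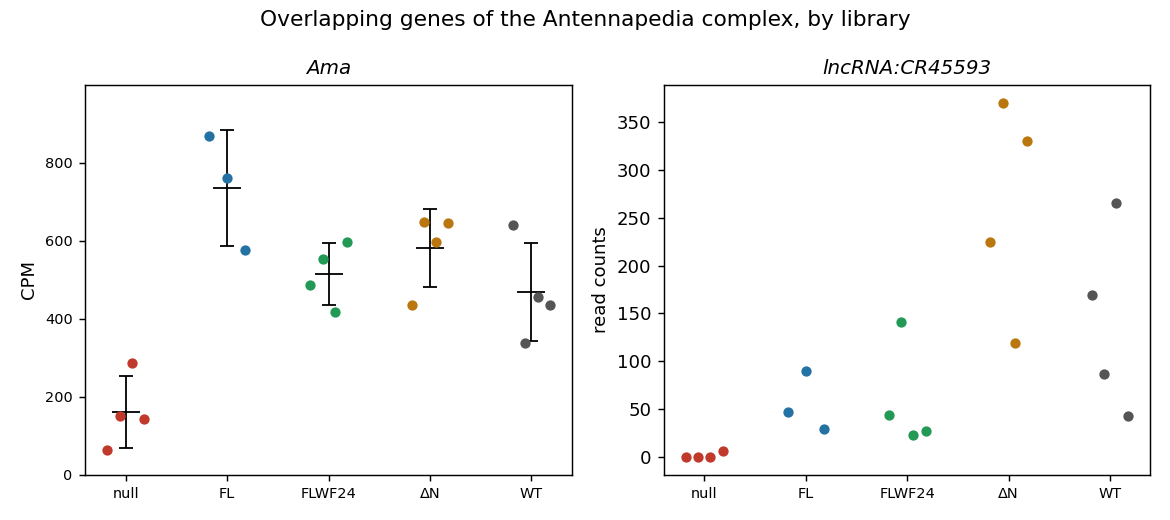
*Ama* in CPM (left, linear axis, points are libraries, mark and bar are the genotype mean and 1 SD) and the overlapping *lncRNA:CR45593* in read counts (right) by genotype. All 4 null libraries lie below the 15 others in both panels, and the share of all tested genes with that pattern is not given here.

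The long noncoding RNA *lncRNA:CR45593* overlaps *Ama* on the opposite strand, at 3R, 6761513 to 6763478, and was picked out after its values were seen. It had 0, 0, 0 and 6 counts in null and 23 to 370 counts in the 15 other libraries. It was called in null against WT (adjusted p = 0.0105, edgeR) and against ΔN (adjusted p = 0.00531), and not against FL (adjusted p = 0.148) or FLWF24 (adjusted p = 0.0527). Of 30 alternative settings, 29 called it against WT, 30 against ΔN, 3 against FL and 8 against FLWF24. DESeq2 called it against FL (adjusted p = 0.00832) and FLWF24 (adjusted p = 0.000434), where it called 511 and 710 genes in all. On leaving out each library in turn, the adjusted p ran from 0.0205 to 0.372 against FL and from 0.00925 to 0.211 against FLWF24, both lowest without null replicate 4, which held the 6 reads. In null and WT libraries alone it was 0.0755. It shares 102 exon bases with *Ama*. Since the counting assigned reads by strand and the kit is not known to keep it, reads of the shared bases cannot be told apart. Outside null, the genotype means of *lncRNA:CR45593* and *Ama* did not run in the same order. FL had the highest mean *Ama* (735.8 CPM) but 3.51 CPM of the noncoding RNA, and ΔN had 581.8 and 31.9 CPM. Their relation over the libraries was not tested.

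Among all other genes lying within the complexes, counted by position after the list was seen, 24 of 39 in the Antennapedia complex and 6 of 12 in the Bithorax complex were tested. Besides *Ama* and *lncRNA:CR45593*, the 7SL RNA gene *7SLRNA:CR32864* was called, at -1.03 in null against FLWF24 (adjusted p = 0.0479, edgeR) and -1.28 in ΔN against FLWF24 (adjusted p = 0.01). The first of these was called in 14 of 30 alternative settings and lost on leaving out any of 12 libraries, with adjusted p from 0.0513 to 0.295. The other was lost without FLWF24 replicate 1 (0.116) or 4 (0.0671) and without ΔN replicate 3 (0.0528), and in the compared groups alone (0.0751). It may share reads with a near-identical 7SL copy nearby, so its values are uncertain. In the Bithorax complex edgeR called 0 of the 6. DESeq2 called *lncRNA:iab4* in ΔN against FL, among 366 genes in all. There edgeR gave *lncRNA:iab4* a log2 fold change of -1.48 (unadjusted p = 0.00118, adjusted p = 0.266). This RNA, the host of a microRNA that represses *Ubx*, was at 40.1 ± 4.16 CPM in FL (n = 3), 29.9 ± 7.77 in WT, 20 ± 7.84 in null and 14.0 ± 5.42 CPM in ΔN (n = 4 each). *lncRNA:iab8* was at 16.6 to 20.9 CPM on average in each genotype, and *lncRNA:bxd* at 1.78 to 6.43 CPM.

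**Figure D5:**
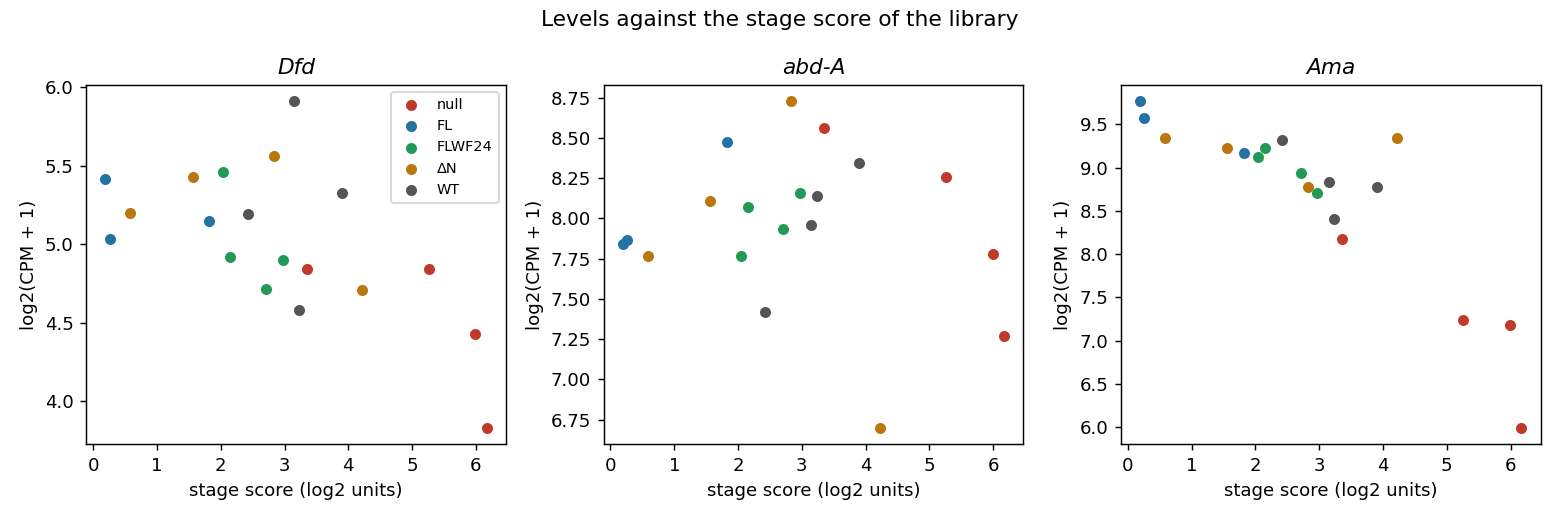
Log2(CPM + 1) of *Dfd*, *abd-A* and *Ama* (vertical axes) against the stage score of each library (horizontal axis, log2 units), coloured by genotype. *Ama* declined with the score (r = -0.863), *Dfd* less closely (r = -0.602), and *abd-A* showed little relation (r = -0.170).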

How the data were processed

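Total RNA of hand-picked embryos was made into ribodepleted libraries (NuGEN Ovation). Per the study, Trimmomatic was used for trimming, HISAT2 for mapping to BDGP6, and htseq-count 0.11.1 at its defaults for counting. What the authors deposited was a table of raw counts with 17906 entries, 17807 of them genes. The header was shifted by 1 cell, and names were read in order. FL columns were numbered 2 to 4 and the labels 1 to 3, so FL was matched as a group and is named by the table. An Ensembl annotation of that assembly, newer than the one used for counting, gave symbols and coordinates and held 17710 of the genes.

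Genes held 4.02% to 36.4% of all counted reads, and most others aligned to more than 1 place. After removal of 138 rRNA genes and of entries that are not genes, 11978 genes passed filterByExpr. Counts were scaled by TMM and fitted with the robust quasi-likelihood test of edgeR 4.0.16 in R 4.3.3. All 19 libraries entered 1 fit with genotype and 1 factor of unwanted variation (RUVs, written in R). The study does not state the number of factors. P-values were adjusted by Benjamini-Hochberg over all tested genes. The labels name the libraries biological replicates. CPM per kb used exon length. Shares were compared by exact permutation tests, and correlations by 100000 permutations that did not keep libraries within their genotype. Alternatives included DESeq2 1.42.0, other scalings, filters and factors, the stage score as covariate, a replicate block and leaving out each library. The fit was tested on simulated data. Named genes were the 8 Hox genes, at most 3 called genes and 3 for orientation of each list, and the 2 genes most alike to each Hox gene. Members and lists were chosen with earlier results of these data known.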

Additional observations from a re-analysis of the deposited data

How the results depend on the processing

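The count of 0 called Hox genes held in each of the 10 comparisons under all 30 alternatives, 300 counts in all, and the lowest adjusted p of a Hox gene in any of them was 0.12. Of 2400 recomputed fold changes of Hox genes, 208 changed sign, none of them called. The number of all genes called moved more. It was 60 in null against FL and ran from 3 (stage score as covariate) to 1431 (compared groups only), was 76 in null against WT and ran from 31 to 343, was 120 in null against FLWF24 and ran from 2 to 815, and was 136 in null against ΔN and ran from 34 to 1512. It was 11 in FL against WT (5 to 339), 3 in FLWF24 against FL (0 to 211), 22 in FLWF24 against WT (3 to 214), 2 in ΔN against FL (0 to 366), 9 in ΔN against WT (1 to 273) and 41 in ΔN against FLWF24 (13 to 340). The cause was not tested. The lists of Hox regulators, cofactors, targets and neighbours gave another count of called genes in 60 of 1740 recomputations.

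The adjusted p of *Dfd* against the stage score was 0.0965 over the 16 relations taken as the family. It was 0.0482 over the 8 relations of the 19 libraries alone and 0.0362 over 18 with *Ama* counted in, so that this call depends on the family. The last 2 families were added after seeing the data.

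Replicate numbers did not pair the libraries. Of 36 same-number pairs, 10 had deviations correlated above 0.1, the mean r was -0.00233 against 0.000803 for other numbers, and 5 of 19 libraries correlated best with their own number. With the replicate block, 0 Hox genes were called in each comparison, the lowest adjusted p was 0.406, and 70 genes in all were called in null against FL, 218 in null against FLWF24 and 4 in ΔN against FL. Counts of *pb* were as low as 61 in a library, and 10 of its 10 intervals reached beyond a log2 change of 1.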
